A study of Mus musculus with 8 samples.

Results

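The cyclin D pathway of mouse leukaemic granulocyte-macrophage progenitors (L-GMP) was followed through 10 genes that control the G1 phase of the cell cycle. They are the kinase genes Cdk4 and Cdk6, the D cyclin genes Ccnd1, Ccnd2 and Ccnd3, the inhibitor genes Cdkn1a, Cdkn1b, Cdkn2c and Cdkn2d, and the retinoblastoma gene Rb1. The members were taken by gene symbol from a table of 55291 genes. Each symbol occurred, and all 10 were among the 17418 genes with enough counts to be tested. Messenger RNA of sorted bone marrow cells was amplified and sequenced, and reads were counted per gene. The cells were negative for lineage markers and Sca-1, positive for c-Kit, CD16/32 and CD34, and are labelled leukaemia stem cells; all mice had acute myeloid leukaemia driven by the fusion oncogene MLL-AF9. The FL group comprised 4 libraries from Dekfl/fl mice, whose Dek gene is floxed and whose genotype label names no Cre. The KO group comprised 4 libraries from Dekfl/fl,MX1-Cre mice, in which Cre recombinase is driven by the interferon-responsive Mx1 promoter. Age, sex and any inducing agent are not stated in the labels, and an effect of the Cre transgene cannot be told apart from loss of Dek. Whether the 4 libraries in a group stem from different mice is not in the labels, so a p-value here speaks of spread between libraries, part or all of which may be technical.

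Cells commit to division in G1, when D cyclins bind the kinases CDK4 and CDK6 and the complexes phosphorylate the retinoblastoma protein. Phosphorylated RB releases E2F factors, which switch on genes for DNA synthesis. INK4 proteins, among them the products of Cdkn2c and Cdkn2d, bind CDK4 and CDK6 and keep cyclins from activating them, whereas the CIP/KIP proteins encoded by Cdkn1a and Cdkn1b block later cyclin-CDK2 complexes and also sit on cyclin D complexes. CDK6 is the G1 kinase on which MLL-rearranged leukaemia cells are known to depend, and it is a direct target of MLL fusion proteins.

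Promoters are shown for both kinase genes, which were lower in KO, and for Cdkn2c, the member with the largest rise. The letters around a start of genes that moved in opposite directions can thus be compared. RefSeq sequences on GRCm38.p6, 250 bases before to 50 bases after a gene start, were matched for 7 members with 10 promoters; Ccnd1, Ccnd2 and Rb1 have no entry. Each is written 5' to 3' on the strand of the gene, and capitals mark the motifs searched on both strands: CACGTG (an E-box of the kind bound by MYC and MAX), TTTCGCG and TTTGGCG (E2F sites), and TGATTNAT (a site shared by PBX and HOX proteins, searched because the series title names PBX3). The Cdk4 window lies at chr10:127063285-127063584 on the plus strand and the Cdk6 window at chr5:3343643-3343942 on the plus strand. Both Cdkn2c windows lie on the minus strand, the first at chr4:109665323-109665622 and the second at chr4:109666707-109667006. The Cdk6 window and both Cdkn2c windows lie within the gene spans given below, which come from GENCODE. In each window printed here, the letters after the start occur in a GENCODE transcript of the gene. They open one only for Cdk6 and the first Cdkn2c window.
Cdk4: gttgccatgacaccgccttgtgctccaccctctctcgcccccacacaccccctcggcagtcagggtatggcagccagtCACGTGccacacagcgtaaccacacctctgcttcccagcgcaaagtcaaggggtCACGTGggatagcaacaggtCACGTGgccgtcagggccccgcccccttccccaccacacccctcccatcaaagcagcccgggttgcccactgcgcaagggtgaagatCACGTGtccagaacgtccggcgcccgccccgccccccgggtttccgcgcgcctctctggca
Cdk6: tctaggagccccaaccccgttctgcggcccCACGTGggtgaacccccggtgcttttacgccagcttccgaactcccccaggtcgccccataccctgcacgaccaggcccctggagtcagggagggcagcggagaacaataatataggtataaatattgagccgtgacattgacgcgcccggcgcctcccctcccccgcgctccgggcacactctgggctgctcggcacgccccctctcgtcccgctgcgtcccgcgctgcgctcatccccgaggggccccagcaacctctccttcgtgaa
Cdkn2c promoter 1: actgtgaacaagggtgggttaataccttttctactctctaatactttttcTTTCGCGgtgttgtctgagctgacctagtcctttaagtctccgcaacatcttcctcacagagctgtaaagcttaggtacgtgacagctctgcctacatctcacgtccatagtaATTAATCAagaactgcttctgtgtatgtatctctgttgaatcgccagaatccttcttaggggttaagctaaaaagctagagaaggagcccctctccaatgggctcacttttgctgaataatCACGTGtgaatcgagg
Cdkn2c promoter 2: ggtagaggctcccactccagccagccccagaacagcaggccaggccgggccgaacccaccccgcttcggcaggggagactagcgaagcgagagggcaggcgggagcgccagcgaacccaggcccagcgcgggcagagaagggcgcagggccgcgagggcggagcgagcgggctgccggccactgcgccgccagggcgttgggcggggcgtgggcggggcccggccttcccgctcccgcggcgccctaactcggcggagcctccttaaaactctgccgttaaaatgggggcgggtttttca
The Cdk4 window held 4 copies of CACGTG, with first bases 172, 118, 98 and 11 bases before the start. The Cdk6 window held 1 copy, 220 bases before the start. The first Cdkn2c window held TTTCGCG 200 bases before the start, a TGATTNAT match on the opposite strand 87 bases before it (printed as its reverse complement) and CACGTG at base 35 of the transcript. None of the 4 motifs occurred in the second Cdkn2c window or in those of Ccnd3, Cdkn1a, Cdkn1b and Cdkn2d. Over 32851 mouse promoters of the same length, 7.15% held CACGTG, 0.849% TTTCGCG, 1.56% TTTGGCG and 3.22% TGATTNAT. A match describes the letters and is not evidence of binding.

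Dek itself, which encodes a chromatin-bound histone chaperone, followed the labels. Its level was 129.3, 136.6, 162.8 and 178.1 CPM (counts per 1e6, scaled by TMM factors) in FL libraries 1 to 4 and 21.2, 21.4, 31.0 and 16.7 CPM in KO libraries 1 to 4. The groups did not overlap, and the KO level of Dek was lower, at a log2 fold change of -2.75 (SE 0.19, adjusted p = 1.65e-05, quasi-likelihood test of edgeR, adjusted by Benjamini-Hochberg over all tested genes, as for every adjusted p of a single gene here). KO libraries held 33941940 to 49736592 counts and 30606 to 37801 detected genes, against 44086524 to 58660705 counts and 24125 to 26053 genes in FL. The TMM factors of KO (1.204 to 1.255) lay apart from those of FL (0.682 to 0.912). Mitochondrial genes held 3.7 to 5.69% of counts in FL and 2.26 to 2.54% in KO. FL 4 had the lowest factor and the highest mitochondrial share. The gene CT010467.1 held 9.39% of counts in FL 4 and 2.43 to 4.41% in the other libraries. Scaling to total counts moved the median log2 fold change of all tested genes from 0.05 to 0.64. Changes are therefore also given relative to that median, under each scaling.

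In KO, 5 of the 10 genes fell under TMM scaling (Cdk4, Cdk6, Ccnd1, Ccnd3, which turned to 0.07 on the log2 scale under total counts, and Cdkn1a), 2 rose (Cdkn1b and Cdkn2c), and Ccnd2, Cdkn2d and Rb1 did not pass the test at an adjusted p of 0.05. Among all tested genes, 27.9% passed, 14.9% lower and 13% higher, so calls in either direction were common in this comparison. The libraries of KO lay wholly below those of FL for 4 members, against 15.8% of all tested genes, and wholly above for 2, against 15.1%. The median log2 fold change of the members was -0.51. Under total-count scaling the members' median was 0.08, and 2 genes (Cdk6 and Ccnd1) were called lower and 3 (Ccnd2, Cdkn1b and Cdkn2c) higher, where 5.09% of all tested genes were called lower and 51.7% higher.

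**Figure D1:**
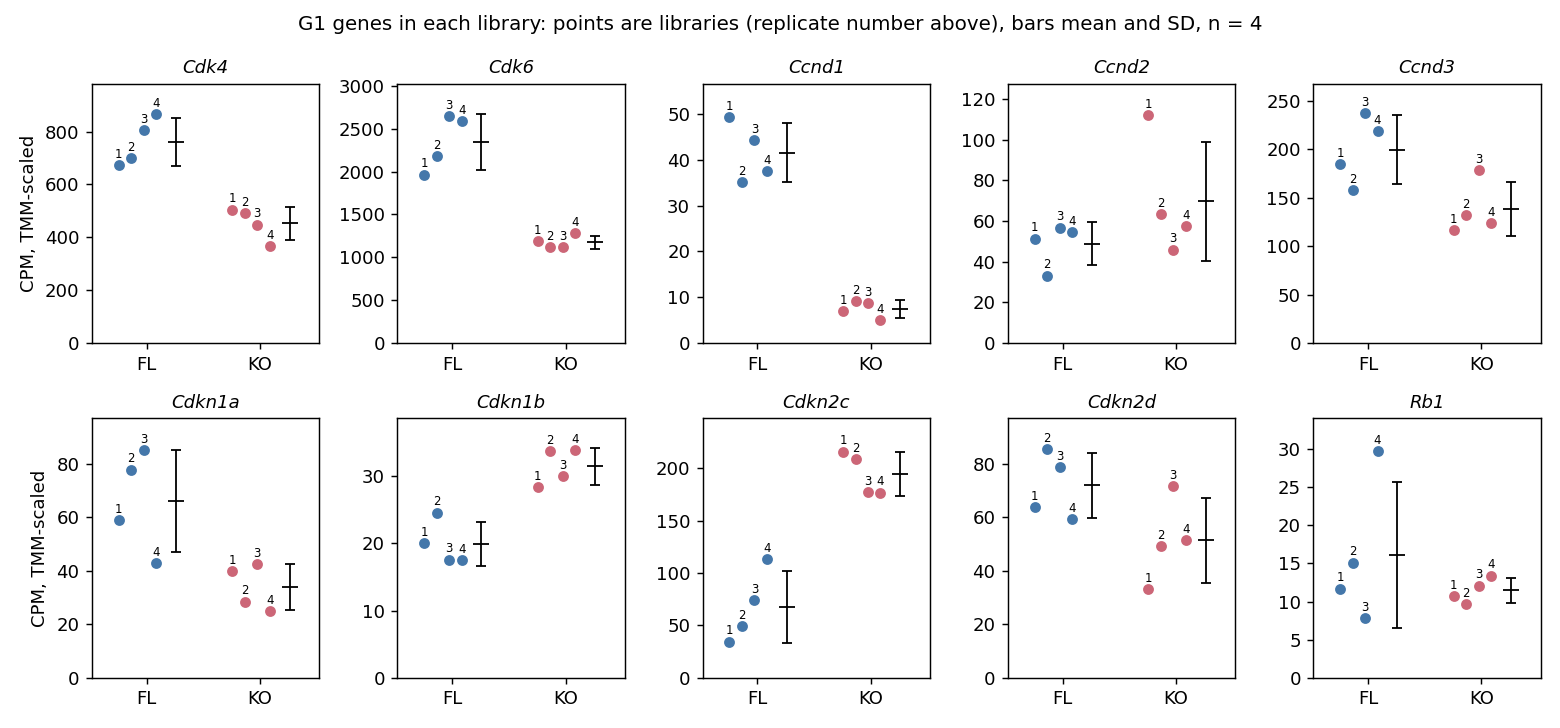
Level of each of the 10 G1 genes in every library (CPM scaled by TMM factors, linear axes from 0), with the replicate number above each point and the mean ± SD of each group (n = 4) beside it. Ccnd1 lies between 35.1 and 49.3 CPM in FL and between 4.96 and 9.10 CPM in KO, whereas the Cdkn2c points of KO lie above all those of FL and the Rb1 and Ccnd2 groups overlap.

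Both G1 kinases fell. Cdk6 (chr5:3341485-3531008, plus strand, mm10) encodes the kinase that predominates over its paralogue in many blood cells. Its transcript stood at 1964.5, 2178.7, 2648.5 and 2585.5 CPM in FL 1 to 4, and at 1186.5, 1117.2, 1119.9 and 1281.3 CPM in KO 1 to 4. Every KO library was below every FL library, and the KO libraries were close to each other. The mean went from 2344.3 ± 327.8 to 1176.2 ± 77.0 CPM (SD, n = 4), a 1.99-fold lower level (log2 fold change -0.99, SE 0.13, adjusted p = 0.000438). Under total-count scaling the groups still did not overlap, and the change was -0.39 (SE 0.12, adjusted p = 0.0112). Cdk4 (chr10:127063534-127067920, plus strand), the other D cyclin partner, stood at 672.8, 698.4, 805.6 and 867.6 CPM in FL and at 504.8, 490.5, 447.6 and 366.5 CPM in KO. The 4 KO values were again all below the FL values. On the log2 scale Cdk4 changed by -0.75 (SE 0.14, adjusted p = 0.00259), but by -0.15 (SE 0.13, adjusted p = 0.337) under total-count scaling, where the call was lost. Relative to the median of all tested genes, the log2 fold change of Cdk6 was -1.04 under TMM and -1.03 under total counts, and that of Cdk4 -0.80 and -0.78. Lower RNA per cell and a smaller share of cells that express a gene cannot be told apart in these bulk libraries, for these genes or for those that follow.

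The ratio of 2 genes within a library does not depend on how libraries are scaled. The log2 ratio of Cdk6 to Cdk4 counts was 1.55, 1.64, 1.72 and 1.58 in FL and 1.23, 1.19, 1.32 and 1.81 in KO. KO 4 was the only KO library whose ratio exceeded those of FL. The means of 1.62 ± 0.08 and 1.39 ± 0.28 (SD, n = 4) differed by -0.23 (two-sided exact permutation test, p = 0.17, and 0.17 after Benjamini-Hochberg adjustment over the 5 ratios tested). Without KO 4 the difference was -0.37 and passed at an adjusted exact permutation p of 0.048. With 4 libraries against 4, the smallest p this test can give is 0.029. Expressed per kilobase of exon, Cdk6 made up 41.7 ± 1.28% of the kinase pair in FL and 37.9 ± 4.71% in KO (SD, n = 4).

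The D cyclins moved apart. Ccnd1 (chr7:144929931-144939925, minus strand) encodes cyclin D1, which is induced by mitogens in many tissues. It stood at 49.3, 35.1, 44.4 and 37.6 CPM in FL and at 6.89, 9.10, 8.64 and 4.96 CPM in KO. No KO library came near the lowest FL library. The mean went from 41.6 ± 6.46 to 7.40 ± 1.89 CPM (SD, n = 4), 5.63-fold lower (log2 fold change -2.49, SE 0.20, adjusted p = 3.8e-05), the largest change of the 10 members in either direction. Ccnd1 passed in all 18 alternative fits, with log2 fold changes of -3.28 to -1.91 and adjusted p-values of 2.2e-38 to 0.00983. It was the sole member still called when the number of detected genes was a covariate. The exons of LTO1 overlap 1100 of the 4709 exonic bases of Ccnd1 on the opposite strand. Whether reads there were dropped or counted for either gene is not known. The FL and KO means of LTO1 itself were 25.3 ± 3.22 and 28.4 ± 2.67 CPM (SD, n = 4, adjusted p = 0.363).

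Ccnd3 (chr17:47505051-47599691, plus strand), whose product cyclin D3 has known roles in blood progenitor expansion, fell by a smaller amount. It stood at 184.9, 158.2, 237.3 and 219.2 CPM in FL and at 116.9, 132.3, 178.8 and 124.0 CPM in KO. KO 3 exceeded FL 2, so the groups overlapped. Ccnd3 had a log2 change of -0.53 with an SE of 0.17 (adjusted p = 0.0337), or of -0.58 relative to the median of all genes, and it turned to 0.07 (SE 0.16, adjusted p = 0.71) under total-count scaling. The call was lost without FL 3 (adjusted p = 0.0773), FL 4 (0.0602), KO 1 (0.0873), KO 2 (0.0901) or KO 4 (0.069), each taken alone. Ccnd2 (chr6:127125162-127152193, minus strand), the third D cyclin gene, stood at 51.3, 33.1, 56.7 and 54.4 CPM in FL and at 112.0, 63.2, 45.9 and 57.5 CPM in KO. KO 1 was far above the other KO libraries, and KO 3 lay within the FL range. The difference (log2 fold change 0.51, SE 0.26, adjusted p = 0.169) was within the spread of the libraries, and it was 0.18 without KO 1. Under total-count scaling it was 1.11 (SE 0.24, adjusted p = 0.00185), or 0.48 relative to the median of all genes.

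Set against Ccnd3 within each library, the log2 ratio of Ccnd1 went from -2.26 ± 0.28 in FL to -4.24 ± 0.34 in KO (SD, n = 4), a difference of -1.98 (exact permutation test, p = 0.029, adjusted over 5 ratios 0.048). KO values ran from -4.64 to -3.86 and FL values from -2.54 to -1.91, with no overlap. The log2 ratio of Ccnd2 to Ccnd3 was -2.05 ± 0.17 in FL and -1.05 ± 0.78 in KO, a difference of 1.0 that missed the threshold (exact permutation test, p = 0.057, adjusted 0.071). It passed without KO 3, with a difference of 1.30 (adjusted exact permutation p = 0.048). Per kilobase, Ccnd1 supplied 24.2 ± 3.46% of D cyclin reads in FL and 6.34 ± 1.43% in KO, while the share of Ccnd2 was 14 ± 1.28% in FL and 29.9 ± 11% in KO. Ccnd3 was the most abundant D cyclin in every library, with 61.8 ± 3.37% in FL and 63.8 ± 10.5% in KO (SD, n = 4).

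**Figure D2:**
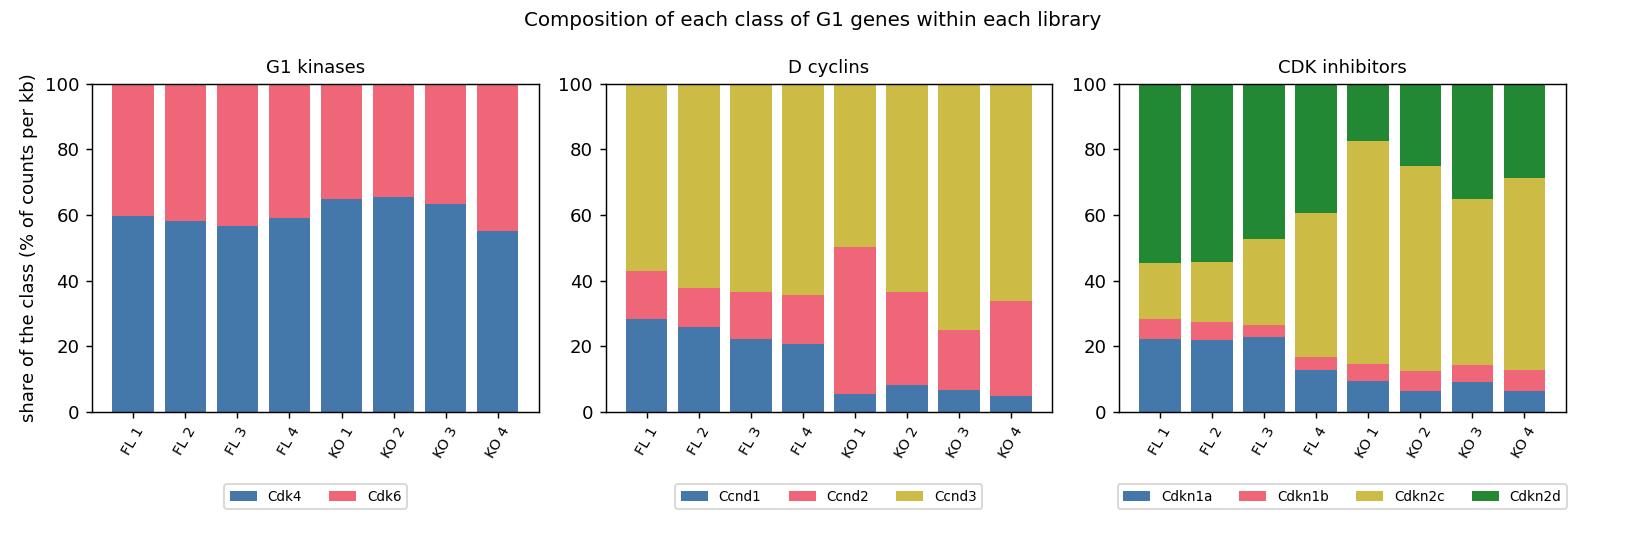
Share of each gene within the G1 kinases, the D cyclins and the CDK inhibitors, in every library, as % of counts per kilobase of exon summed over the class; stacked bars are single libraries. Ccnd1 makes up 20.6 to 28.3% of D cyclin reads in FL and 4.94 to 8.15% in KO, and Cdkn2c 17.2 to 43.9% of inhibitor reads in FL and 50.7 to 67.7% in KO.

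Cdkn2c (chr4:109660876-109667189, minus strand), the gene of the INK4 protein p18, rose in KO. It stood at 34.4, 49.0, 74.4 and 113.0 CPM in FL and at 216.1, 208.5, 177.1 and 176.8 CPM in KO. All KO libraries were above all FL libraries, and the FL libraries differed among themselves by more than those of KO. The mean went from 67.7 ± 34.4 to 194.6 ± 20.6 CPM (SD, n = 4), 2.88-fold higher (log2 fold change 1.52, SE 0.30, adjusted p = 0.00365). The change was 2.18 (SE 0.23, adjusted p = 1.7e-05) under total-count scaling, and 1.48 and 1.54 relative to the median of all genes under TMM and total counts. Cdkn2d (chr9:21288410-21291407, minus strand), which encodes the INK4 protein p19, did not follow it. It stood at 63.8, 85.5, 78.7 and 59.4 CPM in FL and at 33.0, 49.2, 71.7 and 51.3 CPM in KO. KO 3 lay inside the FL range and the other KO libraries below it. The log2 fold change of -0.49 (SE 0.21, adjusted p = 0.109) did not pass, but it did with limma-voom (-0.56, adjusted p = 0.0481), with no count filter (adjusted p = 0.00739) and without KO 3 (-0.69, adjusted p = 0.0233), and under total-count scaling it was 0.09 (adjusted p = 0.751). The log2 ratio of Cdkn2c to Cdkn2d went from -0.21 ± 0.84 to 1.97 ± 0.59 (SD, n = 4), a 4.54-fold difference with no overlap of the groups (2.18 on the log2 scale, exact permutation test, p = 0.029, adjusted 0.048).

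The CIP/KIP genes also separated. Cdkn1a (chr17:29090976-29100727, plus strand), the gene of p21 and a target of p53, stood at 58.9, 77.9, 85.1 and 43.0 CPM in FL and at 39.8, 28.5, 42.5 and 25.0 CPM in KO. The lowest FL library and the highest KO library nearly met, but did not overlap. Cdkn1a fell, with a log2 fold change of -0.96 (SE 0.23, adjusted p = 0.01), and of -0.40 (SE 0.25, adjusted p = 0.172) under total-count scaling. Cdkn1b (chr6:134920401-134925513, plus strand), the gene of p27, stood at 20, 24.6, 17.6 and 17.5 CPM in FL and at 28.4, 33.7, 30 and 33.9 CPM in KO. It rose in KO without overlap of the groups (log2 fold change 0.66, SE 0.14, adjusted p = 0.00537), and by 1.23 (SE 0.20, adjusted p = 0.000349) under total-count scaling. The log2 ratio of Cdkn1a to Cdkn1b went from 1.70 ± 0.42 in FL to 0.08 ± 0.49 in KO (SD, n = 4), a difference of -1.62 (exact permutation test, p = 0.029, adjusted 0.048), with all KO libraries below all FL libraries. The FL libraries held more Cdkn1a than Cdkn1b counts throughout, whereas KO 2 and KO 4 held fewer.

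**Figure D3:**
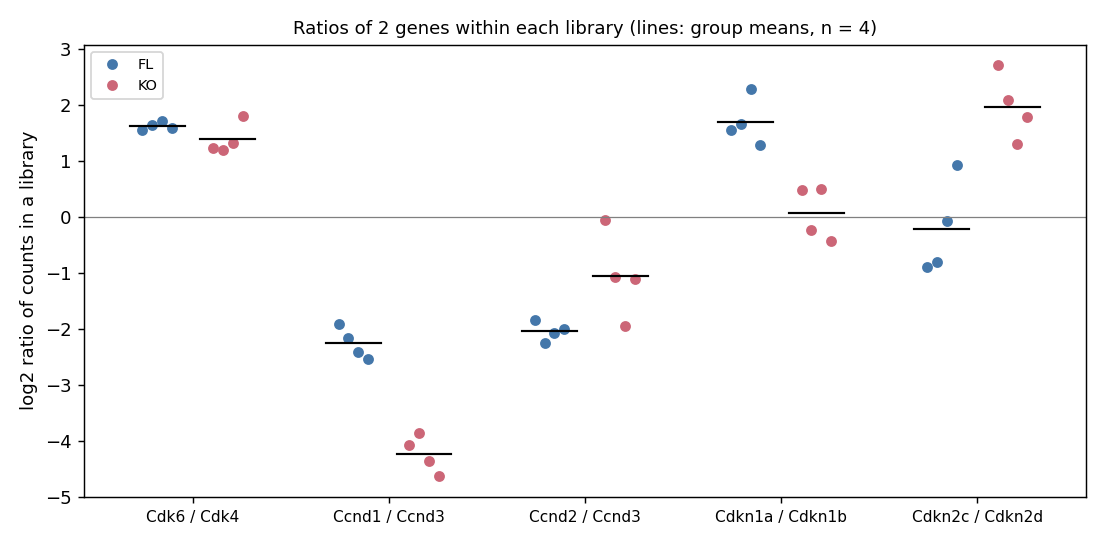
Log2 ratio of the counts of 2 genes in the same library, for the 5 ratios tested; points are libraries and lines group means (n = 4). The groups do not overlap for Ccnd1 to Ccnd3, Cdkn1a to Cdkn1b and Cdkn2c to Cdkn2d, while for Cdk6 to Cdk4 the KO 4 point (1.81) lies above all FL points.

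Rb1 (chr14:73183673-73325822, minus strand), which encodes the retinoblastoma protein phosphorylated by these kinases, stood at 11.7, 15.1, 7.86 and 29.8 CPM in FL and at 10.7, 9.63, 12.1 and 13.4 CPM in KO. FL 4 was far above the other libraries, and the groups overlapped. The log2 fold change of -0.49 (SE 0.34, adjusted p = 0.303) was -0.02 without FL 4. The genes Lpar6 and Rcbtb2 overlap 408 and 488 of its 6015 exonic bases on the opposite strand, and Rcbtb2 rose (log2 fold change 0.54, SE 0.16, adjusted p = 0.0251). The other members with a partner on the opposite strand share fewer exonic bases for their length than Ccnd1 does. They are Cdk4 with Tspan31 (641 of 3249), Cdk6 with Gm17590 (368 of 13989), Ccnd3 with Bysl (361 of 8775) Cdkn1a with AC167363.2 (273 of 3553), and Ccnd2 with Gm43126 (372 of 9409) and 9330179D12Rik (368 of 9409).

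**Figure D4:**
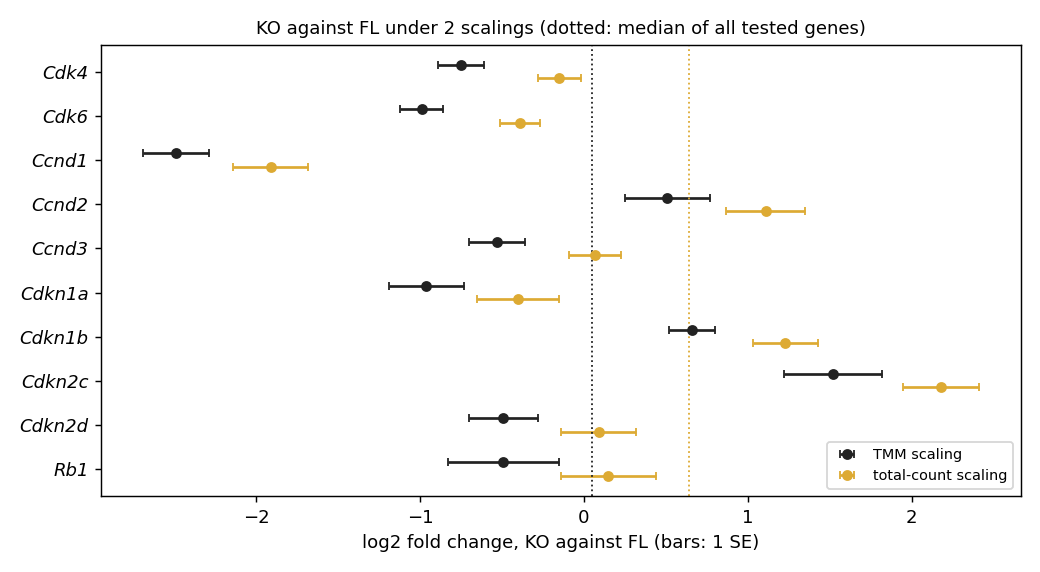
Log2 fold change of each G1 gene in KO against FL with 1 SE, under TMM and under total-count scaling; dotted lines give the median of all tested genes, 0.05 and 0.64. Distances from the dotted line of the same colour are alike under both scalings, while Ccnd3, Cdkn2d and Rb1 lie on different sides of 0.

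Levels were compared between genes per kilobase of exon, with the exons of all annotated transcripts of a gene joined. That length can exceed the length of the transcript expressed. The order of the genes, their ranks, the shares within a class and the sums per kilobase therefore depend in part on the annotation. In FL the order of the mean level in CPM per kb was Cdk4 (234.3 ± 28.1), Cdk6 (167.6 ± 23.4), Cdkn2d (45.7 ± 7.8), Cdkn2c (25.2 ± 12.8), Ccnd3 (22.8 ± 4.02), Cdkn1a (18.6 ± 5.36), Ccnd1 (8.83 ± 1.37), Ccnd2 (5.19 ± 1.14), Cdkn1b (4.37 ± 0.728) and Rb1 (2.68 ± 1.6; SD, n = 4). Neighbours from Cdkn2d to Cdkn1a overlapped in their library ranges, as did Ccnd2, Cdkn1b and Rb1, each with the next. In KO, Cdkn2c (72.5 ± 7.69 CPM per kb) moved up to place 3, behind Cdk4 (139.2 ± 19.1) and next to Cdk6 (84.1 ± 5.51), with which its library range overlapped (65.8 to 80.4 against 79.9 to 91.6). Ccnd1 moved from place 7 to place 10, at 1.57 ± 0.40 CPM per kb, with a range that overlapped that of Rb1, and the ranges of Cdkn1a, Ccnd2 and Cdkn1b also met. Among 12557 protein-coding genes ranked by this measure, Cdkn2c moved from rank 2004 to 545 and Ccnd1 from 4303 to 8598, while Cdk4 (262 and 268) and Cdk6 (351 and 461) stayed among the abundant ones.

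Summed per kilobase, the kinase pair stood at 401.8 ± 50.6 CPM per kb in FL and 223.3 ± 15.6 in KO, and Cdkn2c with Cdkn2d at 70.9 ± 12.1 and 105.0 ± 6.16 (SD, n = 4). Within each library this gave 0.153, 0.196, 0.178 and 0.177 INK4 units per kinase unit in FL and 0.422, 0.472, 0.512 and 0.481 in KO. The ratio was thus higher in each KO library than in any FL library, and it is a description, with no test, of genes tested singly above. D cyclins per kinase unit were 0.0919 ± 0.0124 in FL and 0.111 ± 0.00985 in KO. These are transcript ratios and do not count protein complexes.

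Of the other cyclins and kinases of the cycle, 1 of 7 tested genes passed under TMM scaling, lower, and 1 under total counts, higher. Under total counts 51.7% of all tested genes were called higher and 5.09% lower. Ccne1, the gene of cyclin E1, which activates CDK2 after RB is phosphorylated, stood at 27.9, 28.0, 29.4 and 28.0 CPM in FL and at 17.4, 15.9, 23.4 and 13.1 CPM in KO. It fell without overlap (log2 fold change -0.70, SE 0.17, adjusted p = 0.00959; total-count scaling -0.12, adjusted p = 0.615). Its kinase gene Cdk2 had a log2 fold change of -0.11 (adjusted p = 0.444; 0.47 under total counts, adjusted p = 0.0183), its paralogue Ccne2 one of -0.28 (0.291) and the S phase cyclin gene Ccna2 one of -0.39 (0.356). Without KO 3 and without KO 4, Ccne2 was -0.46 and -0.13, and Ccna2 -0.75 and -0.18. Among the remaining CDK inhibitor genes, Cdkn2a and Cdkn2b, the INK4 genes often silenced in cancer, were too low to test, with group means of 0.211 and 0.0325 CPM (FL and KO) for Cdkn2a and 0.285 and 0.148 CPM for Cdkn2b. Cdkn1c, the third CIP/KIP gene, was near 0 except in KO 3 (3.62 CPM), and its log2 fold change of 2.68 (adjusted p = 0.0577) did not pass, though it did without FL 4, KO 1 or KO 4 (adjusted p 0.029 to 0.0479); without KO 3 it was 1.2 (adjusted p = 0.295). Cdkn3, a phosphatase gene that acts on CDKs, stood at 21.6 ± 5.15 and 22.8 ± 10.2 CPM (SD, n = 4; adjusted p = 0.865).

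The pocket protein, E2F and DP genes gave 1 higher and 2 lower calls among 12, a share near the 27.9% of all genes. Under total counts they gave 5 higher and 0 lower, beside 51.7% and 5.09% of all tested genes. Tfdp1, whose product is the DNA-binding partner of E2F proteins, went from 322.4 ± 72.6 to 206.4 ± 13.3 CPM (SD, n = 4) without overlap, a log2 fold change of -0.64 (SE 0.15, adjusted p = 0.0105), or of -0.02 under total counts. The activator gene E2f2 fell (-0.62, adjusted p = 0.0411; -0.01 under total counts) and E2f5, whose product acts with pocket proteins as a repressor, rose (1.04, adjusted p = 0.0419), but for both genes the groups overlapped. The call of E2f2 was lost without any one of FL 2, FL 3, FL 4, KO 1, KO 2 or KO 4 (adjusted p 0.0533 to 0.0981). The call of E2f5 was lost without FL 1, FL 2, FL 3, KO 1 or KO 2 (adjusted p 0.088 to 0.133). E2f1, which had its highest value in FL 4 (54.7 CPM), did not pass (-0.53, adjusted p = 0.14), and was -0.17 (adjusted p = 0.347) without FL 4.

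Of 20 genes for DNA synthesis that E2F is known to drive, 12 fell under TMM scaling and none rose, with a median log2 fold change of -0.63, beside 0.05 for all tested genes and the background shares of 14.9% lower and 13% higher. DESeq2 and limma-voom also called 12 lower and 0 higher, and 0 were higher at an unadjusted p under 0.05 in edgeR. In 11 of the 20, all KO libraries were below all FL libraries, as in 15.8% of all tested genes. Those of smallest p included the helicase subunit genes Mcm6 (mean 947.5 ± 158.6 CPM in FL, 433.1 ± 55.7 CPM in KO; log2 change -1.13, SE 0.15, adjusted p = 0.000408) and Mcm7 (693.2 ± 117.8 against 324.2 ± 60.3 CPM; -1.10, SE 0.17, adjusted p = 0.000995; SD, n = 4). They also included Mcm3 (-0.85, adjusted p = 0.000771) and Pcna, the sliding clamp gene (-0.75, adjusted p = 0.00176). The other helicase genes Mcm2, Mcm4 and Mcm5, named after their values were seen, fell by 0.85, 0.53 and 0.98 on the log2 scale under TMM; under total counts they were at -0.24, 0.07 and -0.37, and none of the 3 was called. Under total-count scaling 2 of the 20 were called lower (Mcm6 at -0.52 and Mcm7 at -0.49) and 1 higher, beside 5.09% and 51.7% of all tested genes. The median of the 20 was then -0.04, while that of all genes was 0.64. Of the 8 mitotic proliferation markers, 2 were called higher and 0 lower under total counts, beside 51.7% and 5.09% of all tested genes. With the number of detected genes as a covariate, 1 of the 8 and 1 of the 20 S phase genes were called. Under TMM scaling none of the 8 passed in edgeR, and 0 had an unadjusted p under 0.05. None passed in DESeq2 or limma-voom either. Top2a had a log2 fold change of -0.26 (adjusted p = 0.521), Aurkb -0.41 (0.232), Bub1 0.30 (0.424) and Birc5 -0.21 (0.591), and Aurkb passed without KO 3 (-0.66, adjusted p = 0.0444). Without KO 3 and without KO 4, Top2a was -0.53 and -0.07, Bub1 0.02 and 0.49, and Birc5 -0.48 and -0.02, and Aurkb was -0.23 without KO 4. In all 4 of them KO 3 was the highest and KO 4 the lowest KO library.

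**Figure D5:**
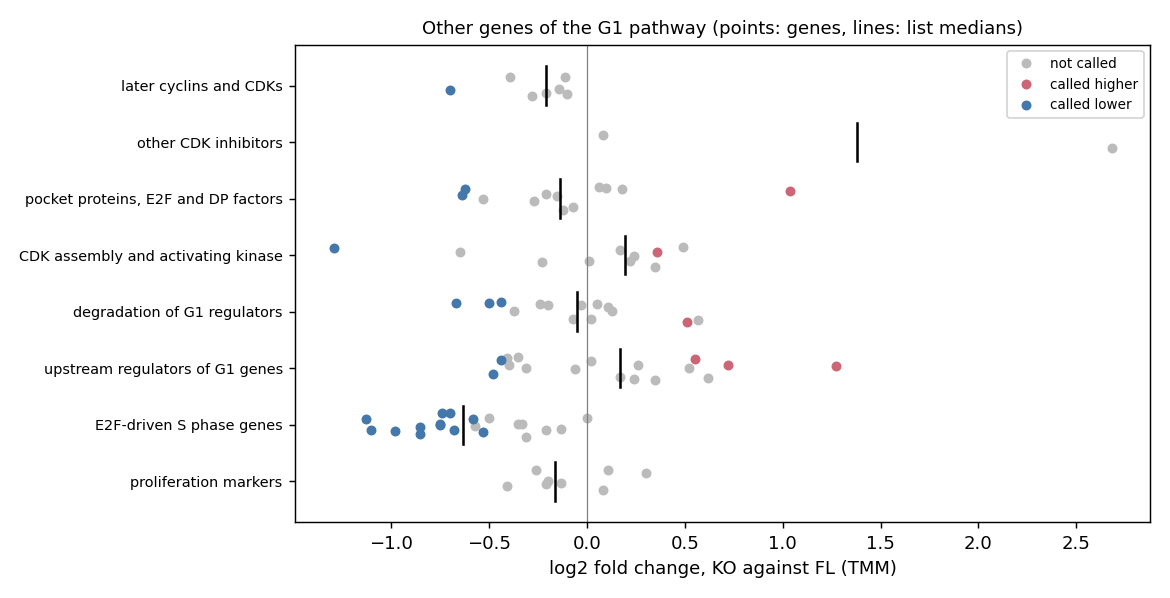
Log2 fold change in KO against FL of each tested gene in 8 lists around the G1 genes (points), with the median of each list (black line) and calls at an adjusted p of 0.05 in colour. Values and calls are those under TMM scaling. The points of the 20 E2F-driven S phase genes lie at or below 0 with 12 called lower, while no proliferation marker is called.

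Among 10 genes that assemble or activate CDKs, 1 rose and 1 fell under TMM scaling. Under total counts 7 were called higher and 1 lower, beside 51.7% and 5.09% of all tested genes. Hsp90ab1, a cytosolic chaperone that with CDC37 folds CDK4 and CDK6, went from 4225.6 ± 785.0 to 1728.8 ± 177.2 CPM (SD, n = 4), without overlap. Its log2 change was -1.29 (SE 0.16, adjusted p = 0.000254), and it also passed under total-count scaling (-0.68, adjusted p = 0.000325). Cdc37 itself had a log2 fold change of -0.65 (adjusted p = 0.0629), and was low in FL 2 (203.2 CPM against 402.0 to 456.0 CPM in the other FL libraries); without FL 2 it was -0.86 (adjusted p = 0.00558). Cdc25a, a phosphatase gene that activates CDK2, rose by 0.36 (adjusted p = 0.0407), a call lost without any library but FL 4 (adjusted p 0.0503 to 0.12). Mnat1, a subunit gene of the CDK-activating kinase, had a log2 fold change of 0.35 (adjusted p = 0.0636), and passed without FL 3 (0.0492) or KO 3 (0.0464).

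Ubiquitin ligase genes that degrade G1 regulators gave 3 lower and 1 higher call among 14 under TMM scaling, near the 27.9% of all genes. Under total counts they gave 10 higher and 0 lower, beside 51.7% and 5.09% of all tested genes. The SCF subunit genes Skp1a (-0.67, SE 0.13, adjusted p = 0.00341) and Rbx1 (-0.44, adjusted p = 0.0137) fell without overlap under TMM scaling, and were at -0.07 and 0.16 under total counts. Cks1b, the cofactor with which SKP2 targets p27, fell by 0.50 on the log2 scale (adjusted p = 0.0496; 0.09 under total counts), a call lost without FL 2, FL 3, FL 4, KO 1, KO 2 or KO 4 (adjusted p 0.0627 to 0.0971). Fbxw7, whose product targets cyclin E, rose from 7.15 ± 0.272 to 10.2 ± 1.07 CPM (SD, n = 4; 0.51, adjusted p = 0.0237), a call lost without FL 1, FL 3, KO 2 or KO 4 (adjusted p 0.0507 to 0.0769). Among 17 upstream regulators, 3 rose and 2 fell under TMM scaling, again near 27.9%. Under total counts 11 were called higher and 0 lower, beside the same 51.7% and 5.09%. The FOXO genes Foxo4 (log2 fold change 1.27, adjusted p = 0.00746) and Foxo3 (0.55, adjusted p = 0.0158), whose products can activate Cdkn1b, rose, as did Max, the MYC partner gene, named after its values were seen (0.72, adjusted p = 0.0488). The Max groups overlapped, with KO 4 at 28.6 CPM below FL 1 at 33.7 CPM, and KO 2 was the highest at 70.1 CPM. Trp53, the gene of p53, fell from 455.4 ± 48.7 to 327.4 ± 34.4 CPM (SD, n = 4; -0.48, adjusted p = 0.0138; 0.11 under total counts), and Stat5a, a cytokine signal transducer gene, fell by 0.44 on the log2 scale (adjusted p = 0.0194; 0.16 under total counts). Without KO 2 the calls of Foxo3 (adjusted p = 0.061) and Stat5a (0.0686) were lost. Myc was not called (-0.35, adjusted p = 0.382; 0.23 under total counts; named after its values were seen).

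Among the genes whose log2 CPM followed that of Cdk6 most closely over the 8 libraries, of 9236 with a mean of 5 CPM or more, were Eif3h (Pearson r = 0.995), a translation initiation factor gene, and the ribosomal protein genes Rpl18 (0.995), Rpl23a (0.995) and Rplp0 (0.994). The 8 points form 2 groups of 4 and share library depth and scaling, so the coefficients describe a step between KO and FL that these genes share. The step was -0.99 for Eif3h on the log2 scale, like that of Cdk6, and -1.65 for Rplp0.

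The sorted phenotype was checked against its transcripts. Kit stood at 91.1 CPM in FL and 153.6 CPM in KO, Cd34 at 709.9 and 460.8, and Fcgr3 at 644.4 and 361.5. The excluded marker Ly6a (Sca-1) stood at 0.342 and 1.64 CPM. Kit rose and Cd34 fell without overlap (adjusted p = 0.00611 and 0.00557). Fcgr3 fell (adjusted p = 0.0121) and Ly6a rose (0.0104), both with overlap. Under total counts Cd34 (-0.03) and Fcgr3 (-0.26) were not called. Fcgr2b, the other CD16/32 gene, stood at 199.4 and 191.5 CPM and was not called under TMM (log2 fold change -0.06, adjusted p = 0.791). It was called higher, without overlap, under total counts (0.52, adjusted p = 0.0252). Of the primary granule genes, Mpo stood at 11537.4 and 12203.7 CPM, Elane at 8480.2 and 9709.7, and Prtn3 at 4267.6 and 2926.9. Ctsg fell without overlap (adjusted p = 0.0033), at 8521.4 and 4778.8 CPM. With total-count scaling its groups overlapped and neither Ctsg (-0.23, adjusted p = 0.092) nor Prtn3 (0.06, 0.748) was called. Mpo (0.71, adjusted p = 0.00662) and Elane (0.81, 0.0011) were then called higher, as were 51.7% of all tested genes. Eosinophil genes moved with the groups: 6 of the 7 rose, and their summed level was 21.4 to 114.1 CPM in FL and 246.0 to 1306.6 CPM in KO, highest in KO 2 (917.1) and KO 3 (1306.6). The summed level of 7 mature neutrophil genes was 92.6 to 710.4 CPM in FL and 163.7 to 2439.8 CPM in KO, with the top in KO 3. Of the 7, Retnlg rose (0.551 and 7.3 CPM) and Mmp8 fell (18.2 and 5.09 CPM), each without overlap, and no other was called. The sum of the mast cell and basophil genes was 89.6 to 229.9 CPM in FL and 29.6 to 55.1 CPM in KO, carried by Cpa3 (131.8 and 5.03 CPM), while Ms4a2 rose (0.775 and 2.75 CPM) and the other 4 had higher means in KO. Erythroid genes summed to 2.51 to 4.90 CPM in FL and 4.48 to 35.1 CPM in KO, T cell genes to 1.33 to 1.76 and 2.84 to 3.97 CPM, megakaryocyte genes to 7.52 to 13.6 and 3.79 to 8.62 CPM with Gp1bb at 0 in all libraries, B cell genes to 89.3 to 118.6 and 78.5 to 102.2 CPM, and monocyte genes to 3114.6 to 6482.4 and 2442.0 to 3330.4 CPM. Single genes carried the last 3 of these sums: Itga2b (9.83 and 3.16 CPM in FL and KO), Cd79b (109.0 and 83.1) and Ly6c2 (3843.3 and 1504.4) fell. In the same lists Gp9 (0.368 and 2.33 CPM), Vpreb1 (0.227 and 0.667), Csf1r (133.2 and 221.7) and Cx3cr1 (21.6 and 40.2) rose. Without KO 2 and KO 3 together, 7.31% of all tested genes were called lower and 5.44% higher, and 5 members were called: Cdk4 (log2 fold change -0.80, adjusted p = 0.0316), Cdk6 (-0.92, 0.0192), Ccnd1 (-2.81, 0.000341), Ccnd3 (-0.73, 0.0381) and Cdkn2c (1.54, 0.0273). Cdkn1a (-1.03, 0.0504) and Cdkn1b (0.65, 0.0554) kept their size and missed the threshold. Of the 20 S phase genes 11 were then called lower, and Ccna2 (-1.0, 0.0358), Aurkb (-0.86, 0.0391) and Birc5 (-0.78, 0.0395) passed as well. The calls of E2f5, Tfdp1, Cdc25a, Skp1a, Fbxw7, Rbx1, Trp53, Foxo3, Foxo4 and Stat5a missed the threshold without both libraries (adjusted p 0.0535 to 0.145), at log2 fold changes of 1.23, -0.71, 0.41, -0.59, 0.57, -0.50, -0.45, 0.61, 1.14 and -0.44. Of the 17 upstream regulators 0 were then called in either direction, so the call of Max was lost too. In KO 1 and KO 4 the eosinophil sums (262.4 and 246.0 CPM) still exceeded the FL maximum of 114.1 CPM. Leaving out KO 2 and KO 3 therefore did not remove that difference. The part of other cell types in the differences of the G1 genes was not tested. The number of detected genes did not overlap between the groups, and with it as a covariate 1 member (Ccnd1) and 205 genes in all were called.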

How the data were processed

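RNA was extracted with a miRNeasy kit, amplified by Geo-seq and made into libraries with a TruePrep transposase kit, per the labels' protocols. Molecular identifiers are not mentioned, so each PCR copy is a read. The authors deposited raw counts per gene. Bowtie 0.12.9, HTSeq 0.13.5, DESeq2 and build mm10 are named per the submitters' processing notes, while the sheet of the deposited counts is named for featureCounts; the counter is therefore unresolved, and its annotation and strand setting were not given in the sources used here. Without strand, reads of genes that overlap on opposite strands cannot be told apart. Columns named wild type were taken as FL, the one group without knockout.

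All 17418 genes that passed filterByExpr, of libraries with 33941940 to 58660705 counts, were fitted at once with edgeR 4.0.16 (R 4.3.3; TMM factors, quasi-likelihood F test, Benjamini-Hochberg adjustment, threshold 0.05), with no covariate. Each SE is the size of the log2 fold change over the root of the F statistic. No 2 libraries were copies: within groups, chi-square per degree of freedom was 21.2 or more. Positions and union exon lengths came from GENCODE M21 (96.4% of symbols matched). Ratios used counts plus 0.5. The members and lists were chosen with earlier results of these data known. Genes named are the members, Dek, the up to 4 genes of smallest p in each list, and the 5 genes most correlated with Cdk6 (predicted and clone names left out; 1 of the 5 is not reported here). Alternatives were RLE, upper-quartile and total-count scaling, DESeq2 1.42.0, limma-voom 3.58.1, no count filter, a filter of 5 CPM in 4 libraries, a replicate block, genes detected as a covariate, 5 added to counts in ratios, and libraries left out. The code of the fits was also run on simulated counts, in which few genes changed and no difference in scaling between the groups was built in. That run cannot tell how the fits behave with the scaling difference seen here.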

Additional observations from a re-analysis of the deposited data

How the results depend on the processing

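The number of genes called (4853) was 9898 under total-count scaling (9012 higher, 886 lower), 3140 with a filter of 5 CPM, 2342 without KO replicates 2 and 3, 205 with genes detected as a covariate, and 3397 to 5033 with 1 library left out; members called (7) numbered 1 with the covariate, where Cdk6 was -0.79 (adjusted p = 0.263), and 5 to 9 in the other alternatives. Under total-count scaling the sign turned for Ccnd3 (0.07), Cdkn2d (0.09), Rb1 (0.15), Cdk2 (0.47), Ccne2 (0.30), Ccna2 (0.21), E2f1 (0.12), Cks1b (0.09), Rbx1 (0.16), Trp53 (0.11), Stat5a (0.16), Top2a (0.35), Aurkb (0.18), Birc5 (0.38), Mcm4 (0.07) and Myc (0.23), where the median log2 fold change moved up by 0.59. With the covariate it turned for Cdkn1c (-1.16), Cdkn3 (-1.55) and Bub1 (-1.26), and without KO 2 and KO 3 for Cdkn3 (-0.49) and Bub1 (-0.24). Cdkn3 ran from -0.26 to 0.22 with 1 library left out, below 0 without FL replicate 1 (-0.07) or KO replicate 3 (-0.26); the causes of these turns were not tested.

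Deviations of same-numbered libraries from their group means were weakly correlated (0.045, 0.026, 0.023 and 0.031), and those of other pairs ran from -0.148 to 0.07. With 4 libraries in each group, this cannot settle whether the numbers pair the libraries. With the replicate number as a block, 4339 genes and 8 members were called, Cdkn2d among them (-0.52, adjusted p = 0.0489). The paired sign-flip test over 4 numbers cannot give a p below 0.125, and the ratio differences of -1.98 (Ccnd1 to Ccnd3), -1.62 (Cdkn1a to Cdkn1b) and 2.18 (Cdkn2c to Cdkn2d) had an adjusted exact p of 0.15. With 1 library left out, the differences ran from -0.37 to -0.17 for Cdk6 to Cdk4, from -2.10 to -1.84 for Ccnd1 to Ccnd3, from 0.67 to 1.30 for Ccnd2 to Ccnd3, from -1.76 to -1.43 for Cdkn1a to Cdkn1b and from 1.94 to 2.56 for Cdkn2c to Cdkn2d. Without a KO library some adjusted p-values of the 3 ratios that passed rose to 0.057 or 0.071 by the exact test.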
